A study of Danio rerio with 6 samples.

Results

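Retinoic acid is made and removed by enzymes, and the transcripts described here are those of 3 such enzyme genes out of the 32266 Ensembl genes in the deposited table. They are aldh1a2 (ENSDARG00000053493), cyp26a1 (ENSDARG00000033999) and cyp26b1 (ENSDARG00000077121), picked by name and identifier. The choice used no measured value, but earlier results of these data were known when it was made. All 3 passed the filter on low counts in both comparisons. The transcripts were measured by RNAseq in 6 samples of cells that flow cytometry had collected for DsRed fluorescence, taken from zebrafish embryos at late stages of the OEPD (otic-epibranchial progenitor domain), from which the inner ear and neighbouring sensory ganglia form. There were 3 atoh1b-MO samples (II, IV and V), from embryos injected with an antisense morpholino against atoh1b, and 3 control samples (I, II and III), from wild-type embryos. Embryos of both groups were heterozygous for the pax8:DsRed transgene, a reporter read from pax8 regulatory sequence that labels the OEPD and the nephric anlagen, so each sorted sample mixes ear and kidney progenitors from many pooled embryos. For the atoh1b-MO samples the genotype field of the labels reads differently, as dlx3b/4b knockdown; grouping here used the titles, which give atoh1b like the series text and the study. A morpholino reduces protein and need not lower its transcript, and the level of atoh1b was not analysed here.

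Retinoic acid is a small lipid derived from vitamin A that enters the nucleus and acts through receptors bound to DNA. Aldh1a2 (Raldh2) is the dehydrogenase that carries out the final, synthetic step in the trunk mesoderm of the vertebrate embryo, whereas the Cyp26 enzymes are cytochrome P450 hydroxylases that break retinoic acid down and so set where the signal can act. In the zebrafish embryo the balance of both activities is known to pattern the hindbrain, the otic placode and the boundary between pronephros and heart or blood progenitors.

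By the deposited positions aldh1a2 lies on chromosome 7 from 30055034 to 30096500 on the minus strand, with 16 merged exon intervals of 3734 bases. On the same chromosome cyp26b1 runs from 25052585 to 25077440 on the plus strand, with 8 exon intervals of 3876 bases. The gene cyp26a1 is far shorter, from 8916918 to 8920510 on the minus strand of chromosome 12, with 11 exon intervals of 1879 bases. The processing notes name the genome build GRCz10 and the methods of the study name GRCz11, and the build of these positions could not be settled. Of the 3 genes, cyp26b1 alone shared exon bases with another gene: 219 bases, or 5.65% of its exons, overlapped si:ch73-156h21.1 (ENSDARG00000105572) on the opposite strand. That neighbour held 1, 2 and 1 counts in atoh1b-MO II, IV and V, and 2, 2 and 20 counts in controls I, II and III, far fewer than cyp26b1 in each sample. Whether counting used the strand is not stated, so reads from the shared bases cannot be told apart.

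Some samples stood apart before any gene of interest was considered. Total counts were similar, from 24120228 to 37169850 per sample. Control III, however, went against its label. The level of pax8 itself, in CPM (counts scaled to library depth, here with TMM factors), was 109, 201 and 173 in atoh1b-MO II, IV and V, and 295, 226 and 16.5 in controls I, II and III. The summed CPM of 5 nephric and intermediate mesoderm markers was 359, 637 and 591 in atoh1b-MO II, IV and V, and 707, 568 and 45.1 in controls I, II and III. Control III was thus far below every other sample in the markers of the sorted kidney progenitors. It was also lowest in the summed OEPD markers, of which 6 of 9 were matched to an identifier, at 222 CPM. The highest OEPD sum was 663 CPM in control II, and pax8 is part of both sums. Of the OEPD markers, pax8, fgf24 and eya1 were lowest in control III. By contrast, foxi1, dlx3b and dlx4b were at 24.0, 107 and 18.3 CPM in control III, between the other controls. They were at 13.9, 79.1 and 12.1 CPM in control I, and at 33.3, 150 and 19.7 CPM in control II. The summed CPM of 5 hindbrain and neural plate markers (egr2b, mafba, sox2, sox3 and sox19a) was 507, 102 and 141 in atoh1b-MO II, IV and V, and 134, 173 and 1148 in controls I, II and III. Control III and, to a lesser extent, atoh1b-MO II therefore carried more neural plate transcripts than the other 4 samples. The study dismissed a diverging wild-type sample before testing, and its text does not name that sample. Control III was taken to be that sample and was left out of the leading comparison here. The tests of the enzyme genes, of their ratio and of the pathway list are given with both samples, without control III and without both. In bulk samples such as these, fewer cells of a type and less RNA per cell cannot be told apart.

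The synthetic enzyme gene aldh1a2 was detected at a steady level in most samples. It had 646, 1201 and 1457 counts in atoh1b-MO II, IV and V, and 1631, 1656 and 1174 counts in controls I, II and III. Scaled to depth, this was 25.2, 48.8 and 48.4 CPM in atoh1b-MO II, IV and V, and 58.7, 44.3 and 42.0 CPM in controls I, II and III. The lowest value by far was that of atoh1b-MO II and the highest that of control I. The other 2 atoh1b-MO samples lay between controls I and II, so the groups overlapped. The counting intervals (exact Poisson, 95%, covering counting error only) of atoh1b-MO IV, from 46.1 to 51.7 CPM, and atoh1b-MO V, from 45.9 to 50.9 CPM, overlapped each other and that of control II, from 42.2 to 46.5 CPM. The interval of control III, from 39.7 to 44.5 CPM, also overlapped that of control II. Overlap of such intervals does not show that the levels are equal within counting error. The mean was 40.8 ± 13.5 CPM in atoh1b-MO samples (SD, n = 3), 51.5 ± 10.2 CPM in controls I and II (SD, n = 2) and 48.3 ± 9.05 CPM in all controls (SD, n = 3).

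The breakdown enzyme gene cyp26a1, the main early hydroxylase of the gastrula and the anterior neural plate, varied much more from sample to sample. It had 816, 314 and 440 counts in atoh1b-MO II, IV and V, and 333, 489 and 1585 counts in controls I, II and III. The level was 31.9, 12.8 and 14.6 CPM in atoh1b-MO II, IV and V, and 12.0, 13.1 and 56.7 CPM in controls I, II and III. The highest sample was a control and the next an atoh1b-MO sample, while the other 4 lay within 12.0 to 14.6 CPM. Among these, the counting interval of atoh1b-MO IV, from 11.4 to 14.3 CPM, overlapped those of control I, from 10.7 to 13.3 CPM, and control II, from 11.9 to 14.3 CPM, and that of atoh1b-MO V, from 13.3 to 16.0 CPM. The mean was 19.7 ± 10.5 CPM in atoh1b-MO samples (SD, n = 3), 12.5 ± 0.768 CPM in controls I and II (SD, n = 2) and 27.3 ± 25.5 CPM in all controls (SD, n = 3).

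The gene cyp26b1, whose enzyme is known in zebrafish from the hindbrain rhombomeres, was the scarcest and the most variable of the 3. It had 474, 24 and 70 counts in atoh1b-MO II, IV and V, and 101, 111 and 737 counts in controls I, II and III. The level was 18.5, 0.976 and 2.32 CPM in atoh1b-MO II, IV and V, and 3.64, 2.97 and 26.4 CPM in controls I, II and III. Again control III was highest and atoh1b-MO II next. The other atoh1b-MO samples were the lowest, both under controls I and II. The counting interval of atoh1b-MO IV, from 0.625 to 1.45 CPM, lay apart from all others, whereas that of atoh1b-MO V, from 1.81 to 2.94 CPM, overlapped that of control II, from 2.44 to 3.57 CPM. Every level lay above the floor of 3 counts, which was between 0.0802 and 0.122 CPM per sample. The mean was 7.27 ± 9.75 CPM in atoh1b-MO samples (SD, n = 3), 3.30 ± 0.473 CPM in controls I and II (SD, n = 2) and 11.0 ± 13.3 CPM in all controls (SD, n = 3).

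**Figure D1:**
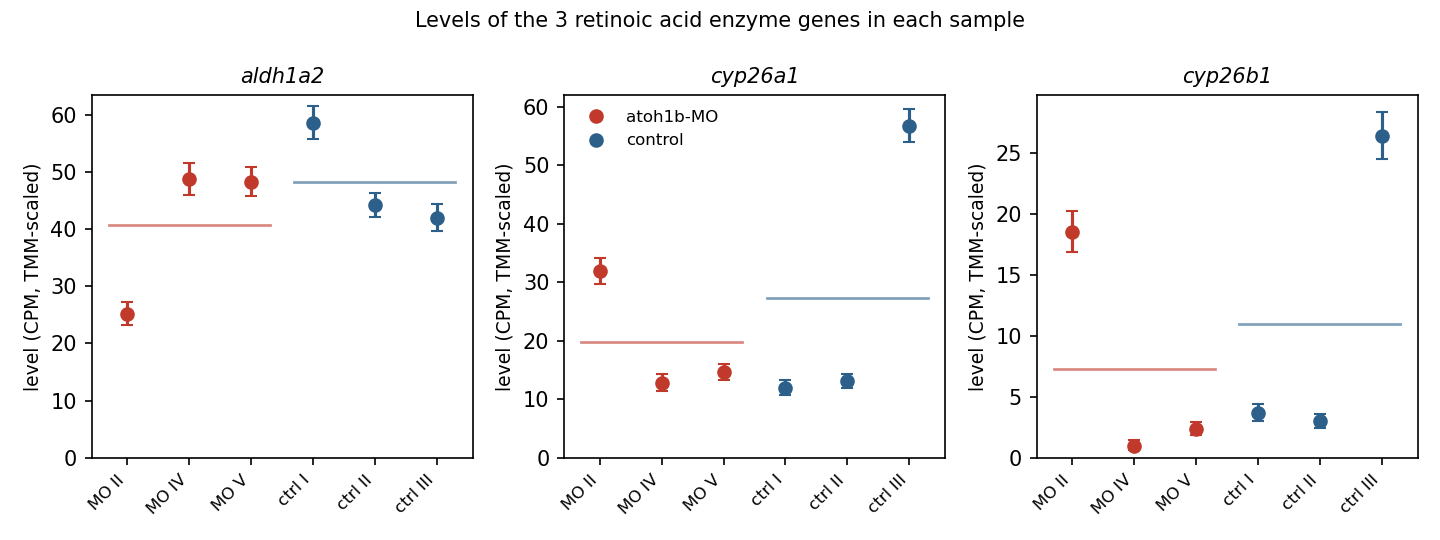
Level of aldh1a2, cyp26a1 and cyp26b1 (y axes, CPM with TMM scaling, each from 0) in the 3 atoh1b-MO samples (red, left) and the 3 control samples (blue, right). Bars are exact 95% Poisson counting intervals and horizontal lines are group means; for both cyp26 genes control III (56.7 and 26.4 CPM) and atoh1b-MO II (31.9 and 18.5 CPM) sit above the other 4 samples, and for aldh1a2 atoh1b-MO II (25.2 CPM) is lowest.

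Levels between the genes were compared per kilobase of exons. The mean level was 10.9 CPM per kb for aldh1a2, 10.5 CPM per kb for cyp26a1 and 1.87 CPM per kb for cyp26b1 in atoh1b-MO samples. In controls I and II it was 13.8, 6.67 and 0.852 CPM per kb in the same order of genes. The transcript of the synthetic enzyme was thus the most abundant in those controls, and cyp26b1 was the least abundant in every sample. In atoh1b-MO II and control III the order of the upper pair was reversed, with cyp26a1 at 17.0 and 30.2 CPM per kb and aldh1a2 at 6.75 and 11.3 CPM per kb. Among the genes detected in a sample, the percentile of the length-scaled level ran from 67.5 to 79.7 for aldh1a2, from 64.1 to 88.7 for cyp26a1 and from 17.1 to 67.2 for cyp26b1.

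To ask whether transcripts of these enzymes depended on Atoh1b, the 3 atoh1b-MO samples were compared with controls I and II. None of the 3 genes was called, and their estimates ran in both directions. The estimated log2 fold change of aldh1a2 was -0.33 (SE 0.272, 95% interval -0.96 to 0.30, edgeR quasi-likelihood test with Benjamini-Hochberg adjustment, adjusted p = 0.701). That of cyp26a1 was 0.66 (SE 0.375, interval -0.21 to 1.53, edgeR adjusted p = 0.567). For cyp26b1 it was 1.14, with by far the widest interval (SE 1.04, interval -1.26 to 3.55, edgeR adjusted p = 0.734). The intervals leave room for more than a doubling of cyp26b1 in either direction. At the study's false discovery rate of 10%, edgeR called 110 of 18397 genes tested, a background of 0.598%, so that 0 of 3 members is a share close to the background. At an unadjusted p below 0.05 edgeR picked 2054 genes (11.2% of those tested) and 0 of the 3. Their unadjusted edgeR p-values were 0.260, 0.118 and 0.305 for aldh1a2, cyp26a1 and cyp26b1. The number called depended on the tool and on the filter: edgeR without the filter on low counts called 488 genes in this comparison. DESeq2, also run without that filter, called 690 genes, and limma voom with it called 84. None of these fits called any of the 3. Without the filter, the unadjusted edgeR p was 0.0348 for cyp26a1, 0.110 for aldh1a2 and 0.127 for cyp26b1. With atoh1b-MO IV left out, the unadjusted edgeR p of cyp26a1 was 0.0478.

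With control III included, both cyp26 estimates turned downwards. Against all 3 controls the estimated log2 fold change was -0.24 for aldh1a2 (SE 0.275, interval -0.90 to 0.41, edgeR adjusted p = 0.898), -0.47 for cyp26a1 (SE 0.681, interval -2.09 to 1.16, edgeR adjusted p = 0.913) and -0.60 for cyp26b1 (SE 1.25, interval -3.58 to 2.39, edgeR adjusted p = 0.944). In this comparison edgeR called 0 of 17874 genes, a background of 0%, with 1039 genes at an unadjusted p below 0.05. DESeq2, run without the filter on low counts, called 112 genes, and limma voom with it called 21. Between these edgeR comparisons the direction given for cyp26a1 and cyp26b1 thus turned with control III. It was not the only choice that turned a direction. Against controls I and II, that of cyp26b1 also turned without atoh1b-MO II (-0.98) and with limma voom (-0.12). Against all 3 controls, that of cyp26a1 turned with limma voom (0.28).

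Leaving out atoh1b-MO II as well as control III, a choice made after the data were seen, left atoh1b-MO IV and V against controls I and II. The estimates of aldh1a2 and cyp26a1 then lay close to 0, at -0.08 (SE 0.140, interval -0.40 to 0.24, edgeR adjusted p = 0.880) and 0.13 (SE 0.183, interval -0.29 to 0.55, edgeR adjusted p = 0.835). The upper bound of the interval for cyp26a1 was below 1.5-fold. The estimate of cyp26b1 turned to -0.98 (SE 0.469, interval -2.05 to 0.09), with an unadjusted p of 0.0670 and an adjusted p of 0.466 by edgeR. Its mean was 1.65 ± 0.953 CPM in atoh1b-MO IV and V and 3.30 ± 0.473 CPM in controls I and II (SD, n = 2 each), and these samples did not overlap. A difference of this size did not pass the test with 2 samples on each side, where edgeR called 260 of 17910 genes (1.45%), 0 of the 3 among them, with 2089 genes at an unadjusted p below 0.05.

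The number II is the only one that both groups share. With a term for the samples numbered II, fitted to the 3 atoh1b-MO samples and controls I and II, the estimates were -0.50 for aldh1a2 (SE 0.134, interval -0.80 to -0.20, edgeR adjusted p = 0.103), 0.67 for cyp26a1 (SE 0.232, interval 0.15 to 1.19, edgeR adjusted p = 0.199) and 0.45 for cyp26b1 (SE 0.731, interval -1.18 to 2.09, edgeR adjusted p = 0.836). Here edgeR called 713 genes, 3.88% of those tested, and 0 of the 3. The unadjusted edgeR p-values were 0.00417 for aldh1a2, 0.0172 for cyp26a1 and 0.552 for cyp26b1. Of all genes tested, 2836 (15.4%) had an unadjusted edgeR p below 0.05 in this fit. The fitted effect comes from controls I and II against atoh1b-MO II, IV and V with just 2 residual degrees of freedom of the samples, and the number is not stated to mark a shared clutch.

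**Figure D2:**
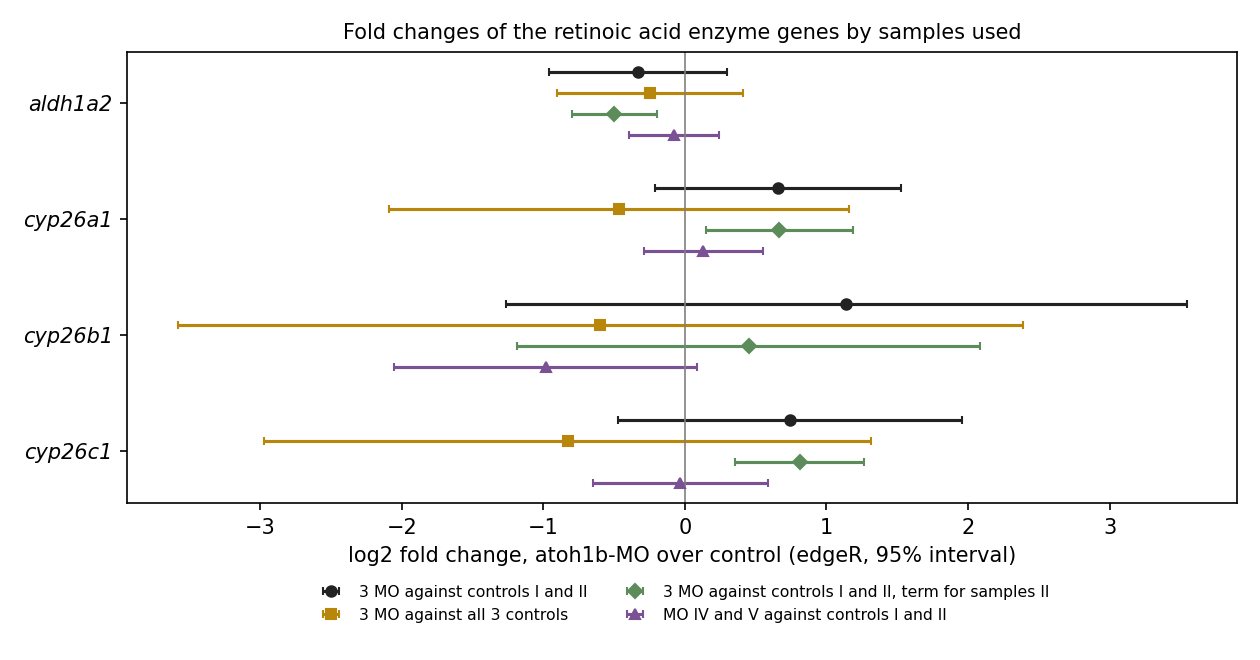
Log2 fold change of atoh1b-MO over control (x axis, edgeR estimate with 95% interval) for aldh1a2, cyp26a1, cyp26b1 and the related cyp26c1 (rows) in 4 choices of samples or terms. The estimate of cyp26b1 is 1.14 against controls I and II, -0.60 against all 3 controls and -0.98 for atoh1b-MO IV and V against controls I and II; intervals of the 3 enzyme genes span 0 except for aldh1a2 and cyp26a1 with the term for samples II.

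For both breakdown enzymes, levels within the 3 atoh1b-MO samples and within all 3 controls spread more widely than the estimated difference between the groups. Controls I and II alone spread less, by 1.09-fold for cyp26a1 and 1.23-fold for cyp26b1. The estimated fold changes against those 2 controls were 1.58 and 2.21. For aldh1a2 the spread was larger than the estimated difference within the 3 atoh1b-MO samples and also within the controls. The highest control level was 1.33-fold of the lowest in controls I and II and 1.40-fold in all controls. The estimated fold changes against these controls were 0.796 and 0.844, each a smaller difference than the spread of the controls. On log2 CPM, control III was above the mean of controls I and II by 2.17 for cyp26a1 (4.51-fold) and by 2.98 for cyp26b1 (7.89-fold). Among all 17874 genes tested, 4.02% and 1.80% lay as high or higher in that sample. Likewise atoh1b-MO II was above the mean of atoh1b-MO IV and V by 1.22 for cyp26a1 (2.33-fold) and by 3.55 for cyp26b1 (11.7-fold). This placed cyp26b1 among the 0.0839% of genes with the largest such excess in atoh1b-MO II, against 5.63% for cyp26a1. The synthetic enzyme gene went the other way: aldh1a2 was at 0.520-fold of atoh1b-MO IV and V in atoh1b-MO II, where 3.81% of genes lay as low or lower, and at 0.825-fold of controls I and II in control III, where 28.6% did. These are descriptions of single samples and carry no test.

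**Figure D3:**
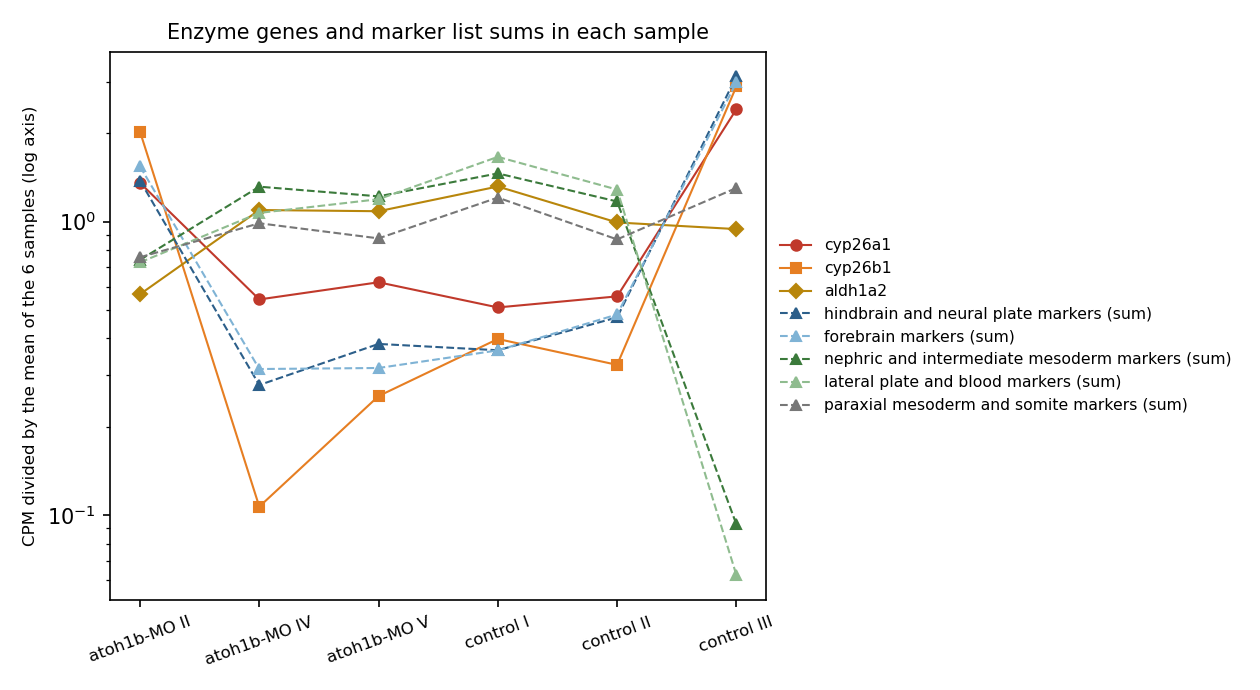
Level of the enzyme genes (solid lines) and of 5 marker lists (dashed lines, summed CPM), each divided by its mean over the 6 samples (y axis, log scale), with the 3 atoh1b-MO samples left of the 3 controls; lines join the points of one gene or list and imply no order of samples. The cyp26 genes and the neural lists are highest in control III and next highest in atoh1b-MO II, while the nephric list (45.1 CPM in control III) and the lateral plate and blood list (136 CPM) are lowest in control III.

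The cyp26 genes and the neural markers were highest in the same pair of samples. Each of the 5 hindbrain and neural plate markers was highest in control III and next highest in atoh1b-MO II. So was each of the 3 matched forebrain markers (otx2b, rx3 and emx3), the order also seen for cyp26a1 and cyp26b1. Of all 17874 genes tested, 2175 (12.2%) had this order. In the remaining samples the hindbrain and neural plate sum was highest in control II (173 CPM). There cyp26a1 was highest in atoh1b-MO V (14.6 CPM) and cyp26b1 in control I (3.64 CPM). Each of these counting intervals overlapped that of the same gene in control II. The summed CPM of the forebrain markers was 55.2, 11.3 and 11.4 in atoh1b-MO II, IV and V, and 13.0, 17.3 and 107 in controls I, II and III. For egr2b, which marks rhombomeres of the hindbrain, the level was 32.6, 3.13 and 5.24 CPM in atoh1b-MO II, IV and V, and 6.05, 7.19 and 75.7 CPM in controls I, II and III. Relative to their neighbours, the hindbrain and neural plate sum was 7.47-fold higher in control III than in controls I and II and 4.17-fold higher in atoh1b-MO II than in atoh1b-MO IV and V. Their part in the cyp26 levels was not tested.

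In the other marker lists, single genes only had control III highest and atoh1b-MO II next. These were tp63 of the epidermis and myod1 of the somites. The summed CPM of 7 markers of paraxial mesoderm and somites, a known source of aldh1a2, was 199, 260 and 231 in atoh1b-MO II, IV and V, and 318, 229 and 343 in controls I, II and III. In this sum, as for aldh1a2, atoh1b-MO II was the lowest sample, but control III was the highest. The single markers were mixed: atoh1b-MO II was lowest for meox1 and ripply1 only, and control III was lowest for tbx16. The 6 markers of lateral plate and blood summed to 1581, 2330 and 2595 CPM in atoh1b-MO II, IV and V, and to 3617, 2798 and 136 CPM in controls I, II and III, so blood progenitor transcripts such as lmo2 and tal1 were abundant in 5 of the 6 sorted samples. The epidermal sum (krt4 and tp63) was 2056, 875 and 894 CPM in atoh1b-MO II, IV and V, and 843, 2942 and 4445 CPM in controls I, II and III. Most of that sum was krt4, whereas tp63 had the order of the cyp26 genes, at 83.7, 22.1 and 26.8 CPM in atoh1b-MO II, IV and V, and 14.6, 38.4 and 133 CPM in controls I, II and III. The muscle gene myod1 was at 4.37, 4.02 and 3.72 CPM in atoh1b-MO II, IV and V, and 1.84, 2.51 and 21.7 CPM in controls I, II and III. Among neural crest markers foxd3 was at 0 in all 6 samples, and the list summed to between 44.1 and 85.0 CPM. The single notochord marker tbxta was at 52.6 to 104 CPM, and the 2 endoderm markers summed to between 0.358 and 4.15 CPM. Their part in the levels of the enzymes was not tested.

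The third gene of the breakdown family, cyp26c1 (ENSDARG00000056029), singled out here after its values were seen, followed the same order of samples. It was at 36.1, 11.2 and 11.7 CPM in atoh1b-MO II, IV and V, and at 8.50, 15.0 and 81.4 CPM in controls I, II and III. Control III was again highest and atoh1b-MO II next, with the other samples of both groups overlapping. Its log2 fold change was 0.74 against controls I and II (SE 0.526, edgeR adjusted p = 0.651), -0.83 against all 3 controls (SE 0.898, edgeR adjusted p = 0.894) and -0.03 for atoh1b-MO IV and V against controls I and II (SE 0.271, edgeR adjusted p = 0.979). With the term for the samples numbered II it passed the threshold, at 0.81 (SE 0.202, edgeR adjusted p = 0.0811). The comparisons share their atoh1b-MO samples and controls and are not independent of each other.

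To set synthesis against breakdown within each sample, the length-scaled level of aldh1a2 was divided by the sum of those of cyp26a1 and cyp26b1, a ratio in which scaling between samples cancels. The log2 ratio was -1.69, 0.89 and 0.63 in atoh1b-MO II, IV and V, and 1.10, 0.62 and -1.72 in controls I, II and III. In 4 samples, from both groups, aldh1a2 transcripts exceeded the sum of cyp26a1 and cyp26b1, by 1.54-fold to 2.15-fold. In atoh1b-MO II and control III they were at 0.311-fold and 0.304-fold of that sum. The sum leaves out cyp26c1, which was at 2.11 (control I) to 20.2 CPM per kb (control III), so adding it would lower each ratio. The low ratios had different parts: the cyp26a1 and cyp26b1 sum was 21.7 CPM per kb in atoh1b-MO II and 37.0 CPM per kb in control III, against 7.04 to 8.37 CPM per kb in the other 4 samples, while aldh1a2 was low in atoh1b-MO II alone (6.75 CPM per kb, with 11.3 to 15.7 CPM per kb in the others).

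The mean log2 ratio was -0.06 ± 1.42 in atoh1b-MO samples and 0.00 ± 1.51 in all controls (SD, n = 3 each), a difference of -0.06 (two-sided exact permutation test, p = 1, where 0.1 is the smallest possible). Against controls I and II, at 0.86 ± 0.34 (SD, n = 2), the difference was -0.92 (two-sided exact permutation test, p = 0.7, where 0.1 is the smallest possible). Nearly all of the difference from controls I and II came with a single sample: without atoh1b-MO II, atoh1b-MO IV and V were at 0.76 ± 0.19 and controls I and II at 0.86 ± 0.34 (SD, n = 2 each), a difference of -0.10 (two-sided exact permutation test, p = 1, where 0.333 is the smallest possible). None of the 3 comparisons could have reached a p of 0.05. Within the breakdown sum, the share of cyp26b1 was 22.0%, 3.57% and 7.16% in atoh1b-MO II, IV and V, and 12.8%, 9.91% and 18.4% in controls I, II and III. The largest cyp26b1 shares thus fell in the same pair of samples, and the smallest in atoh1b-MO IV and V.

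**Figure D4:**
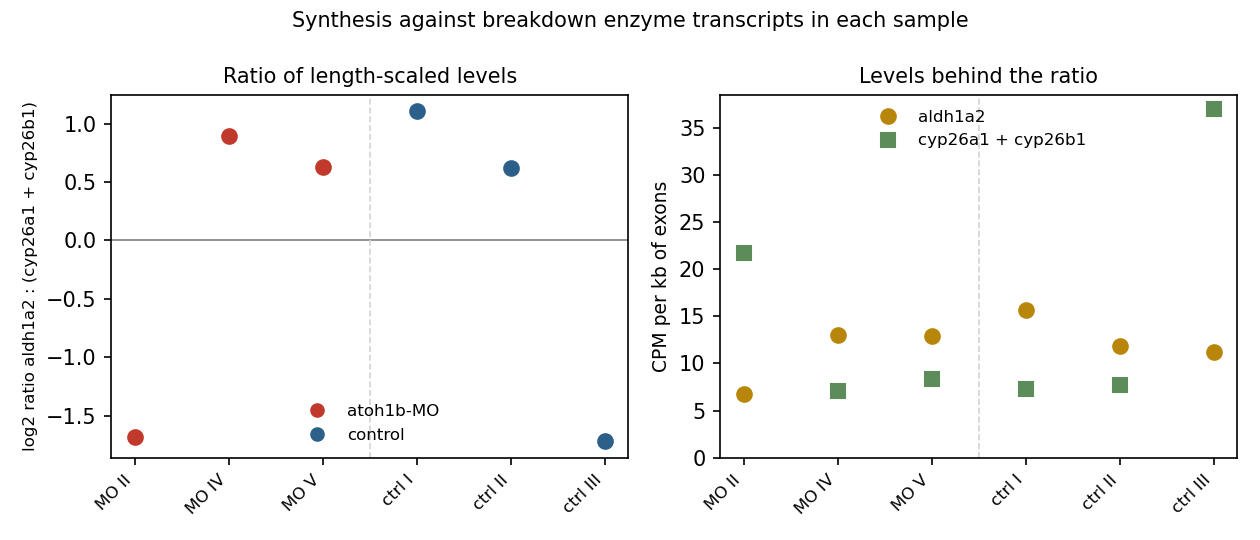
Left, log2 ratio of aldh1a2 to cyp26a1 plus cyp26b1 (y axis, length-scaled levels) in the 3 atoh1b-MO samples (red) and the 3 controls (blue). Right, the levels behind it (y axis, CPM per kb of exons); atoh1b-MO II (-1.69) and control III (-1.72) lie below 0 and the other 4 samples above it.

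The wider pathway was examined by a list of 43 genes, of which 39 were matched to an identifier and 35 were tested in each comparison. None of them was called by edgeR in either comparison, with smallest adjusted p-values of 0.232 against controls I and II and 0.731 against all 3 controls. Over all genes tested edgeR called 0.598% and 0% in these comparisons, so no result about the list is read from this. Without the 3 enzyme genes, 18 of 32 estimates were above 0 and 14 below against controls I and II, with a median log2 fold change of 0.09, compared with 0.01 over all genes tested. Against all 3 controls 12 were above 0 and 20 below, with a median of -0.13 and -0.02 over all genes tested. For atoh1b-MO IV and V against controls I and II, 17 were above 0 and 15 below. The median was 0.02, and -0.01 over all genes tested. There edgeR called 1 of 32, against 260 of 17910 genes tested (1.45%), so no result about the list is read from it. The gene called was named RARG (ENSDARG00000034117, 1 of 2 with that symbol) and was lower (edgeR adjusted p = 0.0967). Counts above and below 0 were thus near even in the comparisons without control III, and more were below 0 with it. The share above 0 over all genes tested was not determined, so no shift of the list is read from these counts. The 32 genes include cyp26c1.

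Of the genes that handle retinol, the precursor, 7 of 13 were tested, and the most abundant per length was rbp5, a retinol-binding protein gene. It was at 36.5, 45.1 and 42.8 CPM in atoh1b-MO II, IV and V, and at 43.5, 48.2 and 43.3 CPM in controls I, II and III, with overlapping groups and a log2 fold change of -0.14 (edgeR adjusted p = 0.724 against controls I and II). Among the proteins that carry retinoic acid in the cytoplasm, the most abundant per length was a gene named CRABP2 in the name table (ENSDARG00000073978, 1 of 2 with that symbol). It was at 88.2, 18.0 and 22.4 CPM in atoh1b-MO II, IV and V, and at 17.4, 31.1 and 174 CPM in controls I, II and III, the sample order of the cyp26 genes (log2 fold change 0.82, edgeR adjusted p = 0.688 against controls I and II).

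Receptor genes were all tested, 10 of 10, and the most abundant per length was rxrba, which encodes a partner of the retinoic acid receptors. Its level was 82.5, 101 and 84.5 CPM in atoh1b-MO II, IV and V, and 94.3, 101 and 73.2 CPM in controls I, II and III (log2 fold change -0.13, edgeR adjusted p = 0.723 against controls I and II). The corepressor gene ncor1 was similarly even, at 177, 194 and 205 CPM in atoh1b-MO II, IV and V, and 197, 201 and 162 CPM in controls I, II and III (log2 fold change -0.05, edgeR adjusted p = 0.884). The listed targets of retinoic acid include cyp26a1 and dhrs3a, which were counted under other roles. Among the 8 other targets tested, 7 estimates were above 0 against controls I and II and 5 against all 3 controls. The share above 0 over all genes tested was not determined, so no shift is read from these counts. None of the 8 targets was called in these comparisons, where edgeR called 0.598% and 0% of all genes tested. The most abundant per length was nr2f5, at 259, 153 and 164 CPM in atoh1b-MO II, IV and V, and 145, 168 and 383 CPM in controls I, II and III (log2 fold change 0.30, edgeR adjusted p = 0.654). The other synthetic enzyme gene of the list, aldh1a3, was scarce, with no count in atoh1b-MO IV and 2.89 and 1.19 CPM in atoh1b-MO II and V, and 0.576, 1.15 and 7.91 CPM in controls I, II and III.

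The order with control III highest and atoh1b-MO II next was found in 8 of the 32 tested pathway genes other than the 3 enzymes (25%), against 2175 of all 17874 genes tested (12.2%). The 8 were aldh1a3, cyp26c1, hoxd4a, nr2f5, rxrga, rxrgb, stra6 and the CRABP2 gene given above. The reverse order, with control III lowest and atoh1b-MO II next lowest, was found in 3 of 32 (9.38%), against 11.9% of all genes. With the term for the samples numbered II edgeR called 3 of the 35 pathway genes (against the 3.88% of all genes): cyp26c1 was higher, and a gene named RDH10 (ENSDARG00000058730) and a gene named RARG (ENSDARG00000034117), each 1 of 2 with that symbol, were lower. These 3 are named because they were called, after their values were seen.

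**Figure D5:**
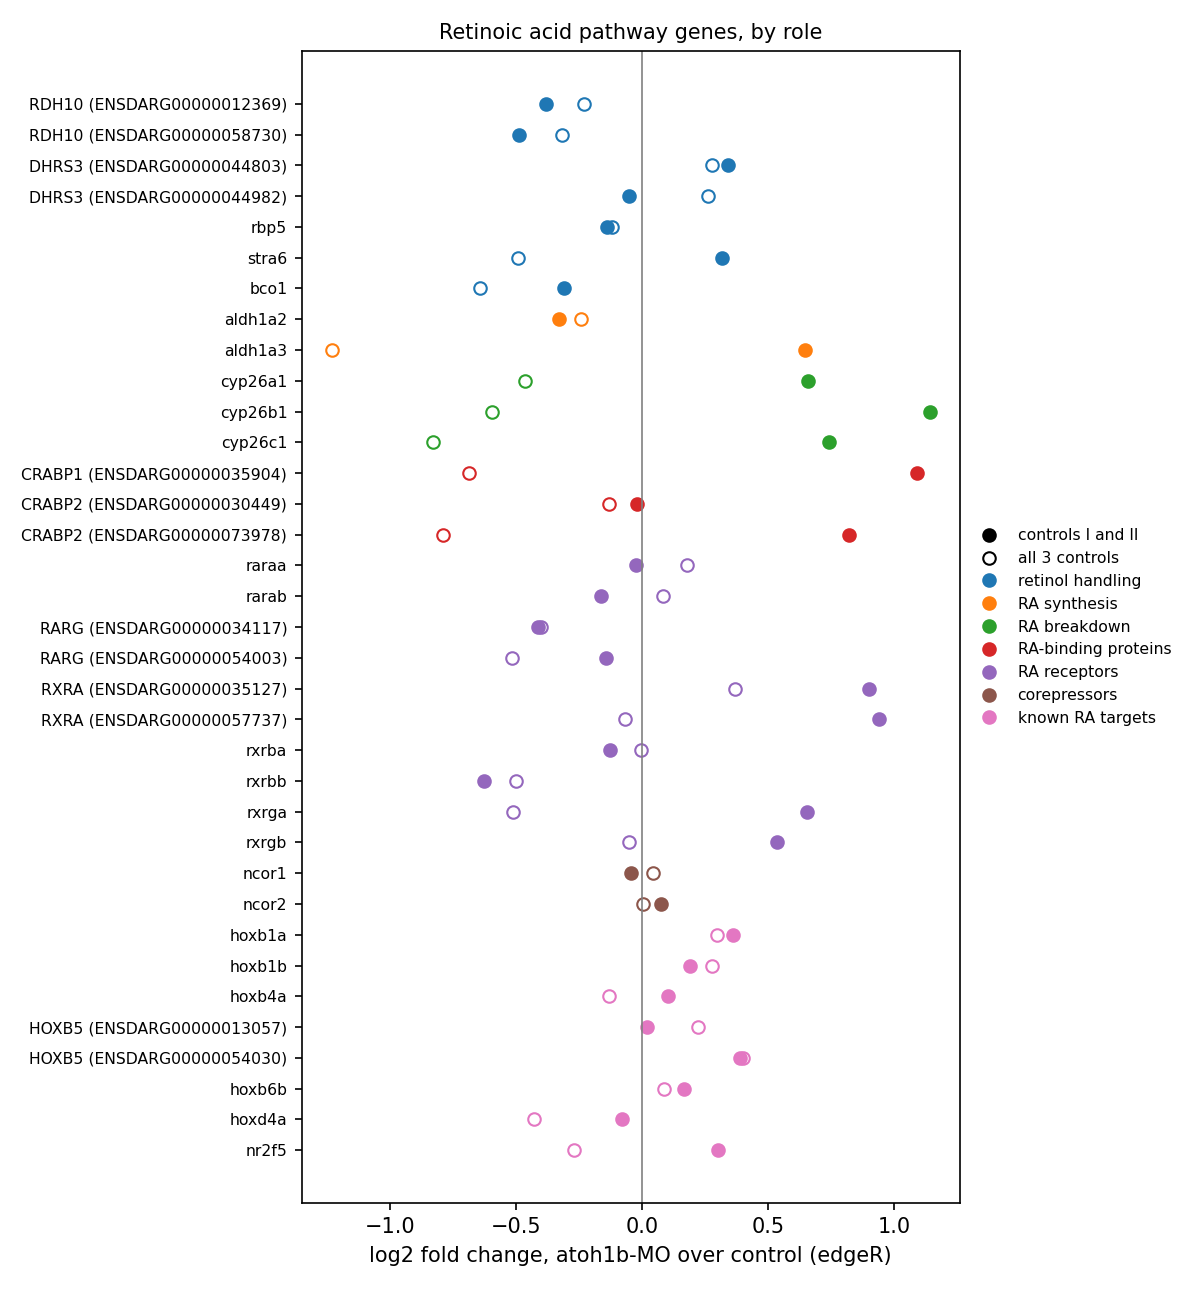
Log2 fold change (x axis, edgeR estimate) of the 35 tested pathway genes, grouped by role (colour), for the 3 atoh1b-MO samples over controls I and II (filled circles) and over all 3 controls (open circles). None of these genes was called in either comparison, where 0.598% and 0% of all genes tested were called. All 3 cyp26 genes lie above 0 with controls I and II and below 0 with all 3 controls, comparisons that share samples.

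The genes most like each enzyme across the 6 samples were sought among 11095 genes with a mean level of at least 5 CPM, by Pearson's r of log2 CPM. For cyp26a1 these were si:ch211-286o17.1 (r = 0.998), angptl2b (r = 0.998) and a gene named SIX3 (ENSDARG00000054879, r = 0.998). The SIX3 gene, of a family known for forebrain and eye development, was at 32.6, 9.96 and 10.9 CPM in atoh1b-MO II, IV and V, and at 8.03, 10.5 and 82.4 CPM in controls I, II and III. For cyp26b1 they were MBIP (r = 0.994), si:ch73-162j3.5 (r = 0.990) and WDHD1 (r = 0.989). Pearson's r takes no account of the size of a change, and MBIP ranged only between 12.7 and 16.1 CPM. For aldh1a2 they were TMEM70 (r = 0.985), QRSL1 (r = 0.982) and ENSDARG00000090544 (r = 0.982). Between the members r was 0.912 for cyp26a1 with cyp26b1, -0.58 for aldh1a2 with cyp26a1 and -0.63 for aldh1a2 with cyp26b1, and cyp26a1 with cyp26c1 gave 0.984. These values describe 6 samples, in which control III and atoh1b-MO II were the extreme samples for the cyp26 genes.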

How the data were processed

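RNAseq counts of 6 samples (3 atoh1b-MO, 3 control) were used, grouped by title. The study describes them as biological replicates; p-values measure only the spread between these samples. The deposited values are raw counts per Ensembl gene, made by the authors with featureCounts and not normalized; the processing notes name bcl2fastq (version 2.19.1), featureCounts (version 1.5.3) and GRCz10, whereas the study's methods name GSNAP and GRCz11. The library kit also differs between labels (strand-specific poly(A) libraries) and methods. Unique alignment lowers counts of near-identical paralogs. The 92 spike-in sequences had no counts and were left out. The gene length deposited beside the counts was used to scale levels per kilobase.

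Comparisons were fitted over all genes in R (version 4.3.3) with edgeR (version 4.0.16): TMM scaling, filterByExpr, quasi-likelihood test, Benjamini-Hochberg adjustment and a threshold of 0.1. Standard errors were derived from the test, as the size of the log2 fold change over the root of its F statistic. The biological coefficient of variation was 24.7% without control III and 36.1% with it. The authors' clutch factor is not in the labels and was not fitted. The log2 ratio was tested by exact permutation over samples. No replicate pair of a group agreed within sampling noise (chi-square per degree of freedom 11.7 to 123). PCR copies of a molecule are counted as separate reads, so intervals and floors cover counting error only. Likeness used log2 CPM with a prior count of 2.

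Gene symbols came from a table that named 26433 of 32266 identifiers (81.9%), where paralogs can share 1 symbol in capitals; such genes are given with their identifiers. Of 45 marker symbols 39 were matched to a single identifier and used; 1 listed target of retinoic acid is not reported here. Named pathway genes were those called and otherwise the most abundant per length of each role. The enzymes and lists were chosen with earlier results of these data known. Alternatives were DESeq2 size factors, library size alone, no filter, at least 10 counts in every sample and voom with sample weights in limma (version 3.58.1). Others were the DESeq2 test (version 1.42.0, run without filterByExpr), a threshold of 0.05, a term for the samples numbered II and leaving out each replicate.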

Additional observations from a re-analysis of the deposited data

How the results depend on the processing

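No alternative called any of the 3 enzyme genes. The adjusted p ranged from 0.103 to 0.993 for aldh1a2, 0.199 to 0.973 for cyp26a1 and 0.466 to 0.983 for cyp26b1 against controls I and II. For the alternatives to all 3 controls it ranged from 0.701 to 1.00 for aldh1a2, 0.567 to 1.00 for cyp26a1 and 0.466 to 1.00 for cyp26b1. The low ends of these came from fits without control III. With control III kept, the lowest were 0.753 for aldh1a2 (limma voom), and 0.809 for cyp26a1 and 0.830 for cyp26b1 (edgeR, 1 other replicate left out). DESeq2 gave no p for cyp26b1 against all 3 controls. No paired analysis was possible because the groups share only the number II; the term for the samples numbered II stood in its place. Directions turned as follows, and the cause was not tested. With limma voom the log2 fold change of cyp26b1 was -0.12 against controls I and II, and that of cyp26a1 was 0.28 against all 3 controls. Leaving out each replicate gave -0.53 to -0.08 for aldh1a2, 0.13 to 0.89 for cyp26a1 and -0.98 (without atoh1b-MO II) to 1.66 for cyp26b1 against controls I and II, and -0.39 to 0.011 (without atoh1b-MO II) for aldh1a2, -0.99 to 0.66 (without control III) for cyp26a1 and -2.72 to 1.14 (without control III) for cyp26b1 against all 3 controls. Without control III and atoh1b-MO II, cyp26a1 was at 0.13.

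The log2 ratio differed by -0.92 (without control III) to 0.76 (without atoh1b-MO II) when replicates were left out. It differed by 0.50 without control I and by 0.25 without control II. With cyp26b1 alone as the denominator it differed by 0.63, and with cyp26c1 added to the denominator by -0.006. Against controls I and II the 110 genes called became 488 with no filter, 690 with DESeq2, 71 at a threshold of 0.05, 713 with the term for the samples numbered II, and 13 (without control I) to 260 (without atoh1b-MO II) when replicates were left out. Against all 3 controls the 0 genes called became 112 with DESeq2, 21 with limma voom, 0 to 110 (without control III) when replicates were left out, and 260 without control III and atoh1b-MO II. The number of samples, and the counts of cyp26b1 in atoh1b-MO IV and V (24 and 70), limit the precision of these values.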
